A study of Mus musculus with 6 samples.

Results

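The unfolded protein response and the amino acid response were followed through 42 genes, chosen by name from what is known of both pathways and found among 46983 genes in the count tables. They fell into 3 classes: 5 stress sensors with the transcription factor gene Xbp1 among them, 19 genes made up of Atf4 and its targets, and 18 chaperone and degradation genes of the endoplasmic reticulum (ER). Messenger RNA came from colonies that lineage-depleted marrow progenitors of C57BL/6 mice formed during 6 to 7 days in methylcellulose, where stem cell factor, IL-3 and IL-6 were present. The KO group held 3 libraries labelled Psip1-KO, from mice that the series design writes as PsipVav/Vav, and the WT group held 3 libraries labelled wild type, from mice that the design writes as PsipFl/Fl, so that WT refers to a floxed allele in that text. The mice were 8 to 11 weeks old by one label and 8 to 10 weeks by the growth protocol. Psip1 encodes LEDGF, a chromatin reader through which menin and MLL are held at active genes, and the comparison addresses what its loss does in normal myeloid progenitors. The labels do not say that each library had its own mouse, so the p-values reflect differences among libraries that may be technical in part.

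Cells answer misfolded protein in the ER through the sensors PERK, IRE1 and ATF6. PERK and the amino acid sensor GCN2 phosphorylate the translation factor eIF2, which lowers general protein synthesis and favours translation of the transcription factor ATF4, while IRE1 splices the Xbp1 messenger and ATF6 is cut to release a transcription factor. ATF4 raises genes for amino acid synthesis and import, and XBP1 and ATF6 raise chaperones and degradation factors. Secretory blood cells such as mast cells, neutrophil precursors and plasma cells carry a heavy load of ER protein folding. Counts per gene show the RNA level of these genes, and show neither splicing of Xbp1 nor translation of Atf4.

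The libraries differed in depth. KO libraries held 7056614 to 15569088 reads on genes, WT replicates 1 and 2 held 14332364 and 10418101, and WT replicate 3 held 27909, where 1 read was worth 29.9 CPM (reads scaled to a common effective library size). WT replicate 3 is therefore given in reads, and levels are compared over the 5 deep libraries. Mitochondrial genes took 15.7% of gene reads in KO replicate 2 and 9.52% in WT replicate 3, against 1.26% to 1.84% in the other 4 libraries. Psip1 stood at 14.8, 17.6 and 16.3 CPM in KO replicates 1, 2 and 3 and at 89.3 and 70.0 CPM in WT replicates 1 and 2, with 3 reads in WT replicate 3, so the deep libraries followed their labels. Its log2 fold change was -2.32 (SE 0.32), with an adjusted p = 0.0599 by edgeR's quasi-likelihood test, outside the threshold of 0.05. No gene passed that threshold: 0 of 12292 were called by edgeR (0% of genes tested), 152 were higher and 26 lower at an unadjusted p under 0.05, DESeq2 called 1 and limma-voom 0. At an adjusted p under 0.1 edgeR called 4 genes (0.0325%), and none of the 42 genes was among them.

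None of the 42 genes passed the test for a difference between the genotypes. All 42 had enough reads to be tested, and 0 were called by edgeR, DESeq2 or limma-voom. At an unadjusted p under 0.05 by edgeR the count was 0 in either direction, where 1.24% of all genes tested were higher and 0.212% lower. Every adjusted p by edgeR rounded to 1.00, and the log2 fold changes of KO over WT ran from -0.57 to 0.27 with standard errors of 0.31 to 0.76. The sign was negative for 32 of the 42 genes (76.2%) and for 48.0% of all genes tested, and the medians were -0.14 and 0.01. With 1 of the 6 libraries left out the number of negative signs ran from 22 to 33. The sign of 29 genes turned in at least 1 of 18 alternative settings and that of 13 genes in none. The CPM of KO and of the deep WT libraries overlapped for 41 genes. Dnajb11 was the exception, lower in KO, where 3.87% of all genes tested were lower without overlap and 4.79% were higher.

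**Figure D1:**
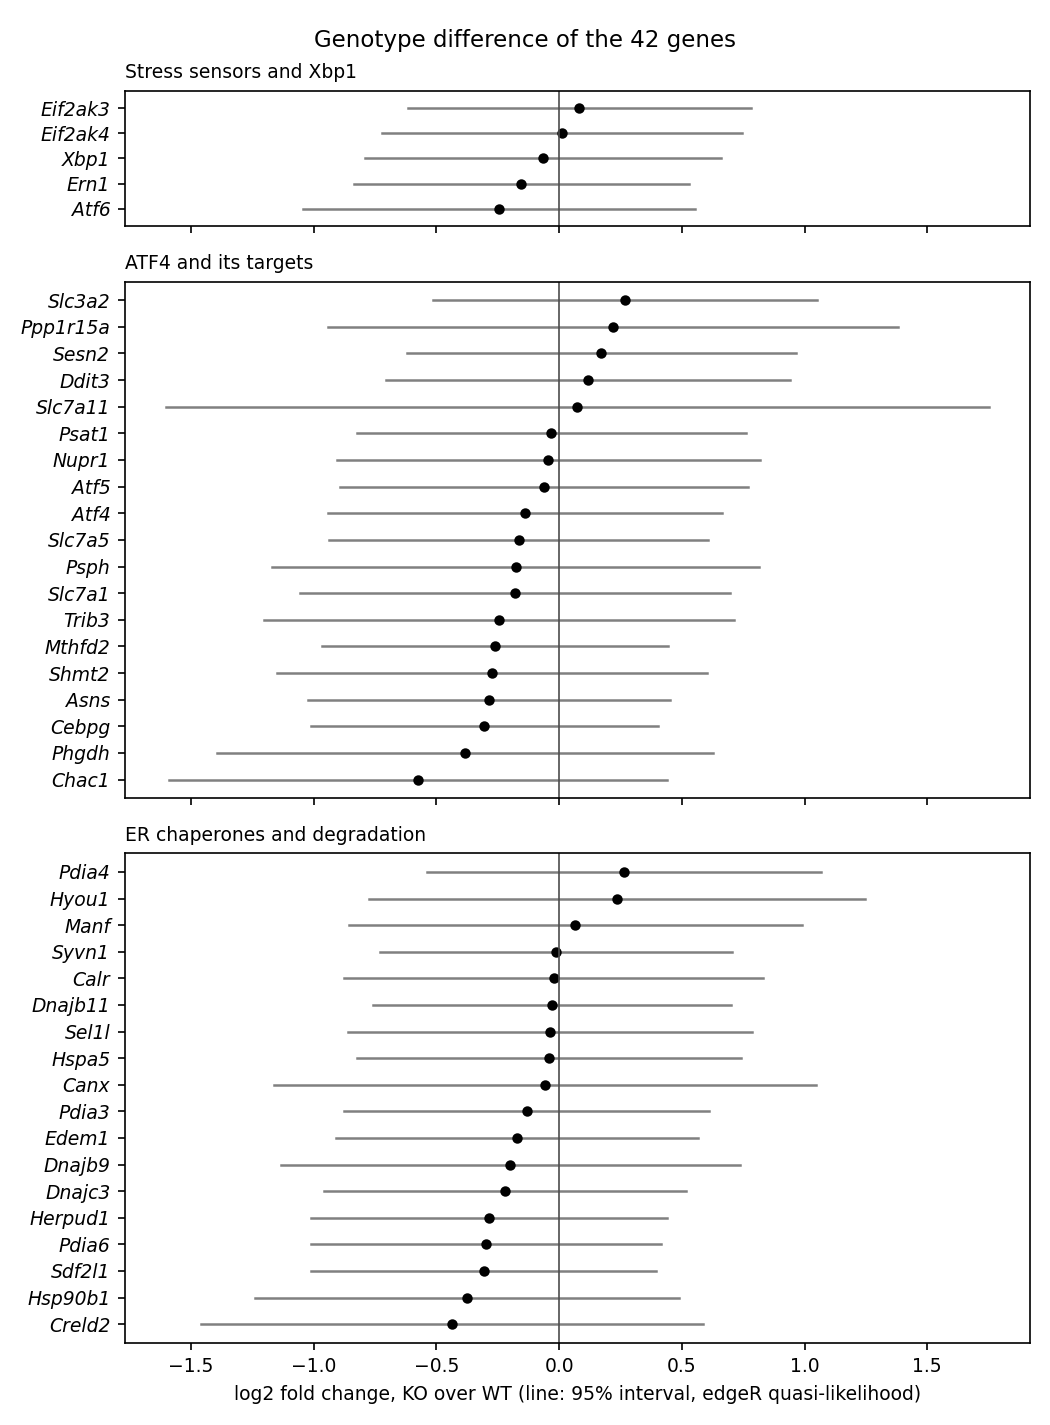
Log2 fold change of KO over WT for each of the 42 genes (points) with its 95% interval (lines) from edgeR's quasi-likelihood fit on 6 libraries, by class. Each interval contains 0, and the points lie between -0.57 and 0.27.

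The sensors were expressed in every deep library, and none was called. Eif2ak3, which encodes PERK (chromosome 6, 70844515 to 70905245, GRCm38), stood at 44.8, 49.4 and 56.1 CPM in KO replicates 1, 2 and 3 and at 53.1 and 44.0 CPM in WT replicates 1 and 2, with 1 read in WT replicate 3. The KO and WT values interleaved, and the log2 fold change was 0.08 (SE 0.32, 95% interval -0.62 to 0.78). Eif2ak4, which encodes GCN2 (chromosome 2, 118388618 to 118475234), stood at 33.4, 32.7 and 47.1 CPM in the KO libraries and at 40.3 and 35.5 CPM in WT replicates 1 and 2, with 1 read in WT replicate 3. Its difference was 0.01 (SE 0.33, 95% interval -0.72 to 0.74), a value that was negative in 8 of 18 alternative settings.

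Ern1, which encodes IRE1 alpha (chromosome 11, 106394650 to 106487852), stood at 45.9, 46.7 and 50.6 CPM in the KO libraries and at 58.5 and 46.7 CPM in WT replicates 1 and 2, with 2 reads in WT replicate 3. KO libraries lay close together and WT replicate 1 stood above them, for a log2 fold change of -0.15 (SE 0.31). Atf6 (chromosome 1, 170704674 to 170867771) varied more, with 73.1, 64.5 and 115.1 CPM in the KO libraries, 123.7 and 78.6 CPM in WT replicates 1 and 2 and 3 reads in WT replicate 3. KO replicate 3 and WT replicate 1 were the high libraries, 1 from each genotype, and the log2 fold change was -0.24 (SE 0.36).

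Xbp1, the transcription factor whose messenger IRE1 splices (chromosome 11, 5520659 to 5525893), stood at 337, 279.9 and 266.7 CPM in the KO libraries and at 274.2 and 381.5 CPM in WT replicates 1 and 2, with 8 reads in WT replicate 3. WT replicate 2 and KO replicate 1 were highest here, the reverse of Atf6, and the log2 fold change was -0.07 (SE 0.33, 95% interval -0.79 to 0.66). Per kilobase of exon Xbp1 was the most abundant of this class in KO, at 90.7 CPM per kb, against 9.12 CPM per kb for Atf6 and 5.06 CPM per kb for Eif2ak4. Over the 5 genes 0 were called, 2 had a positive and 3 a negative log2 fold change, and the median was -0.07, against 0.01 over all genes tested.

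**Figure D2:**
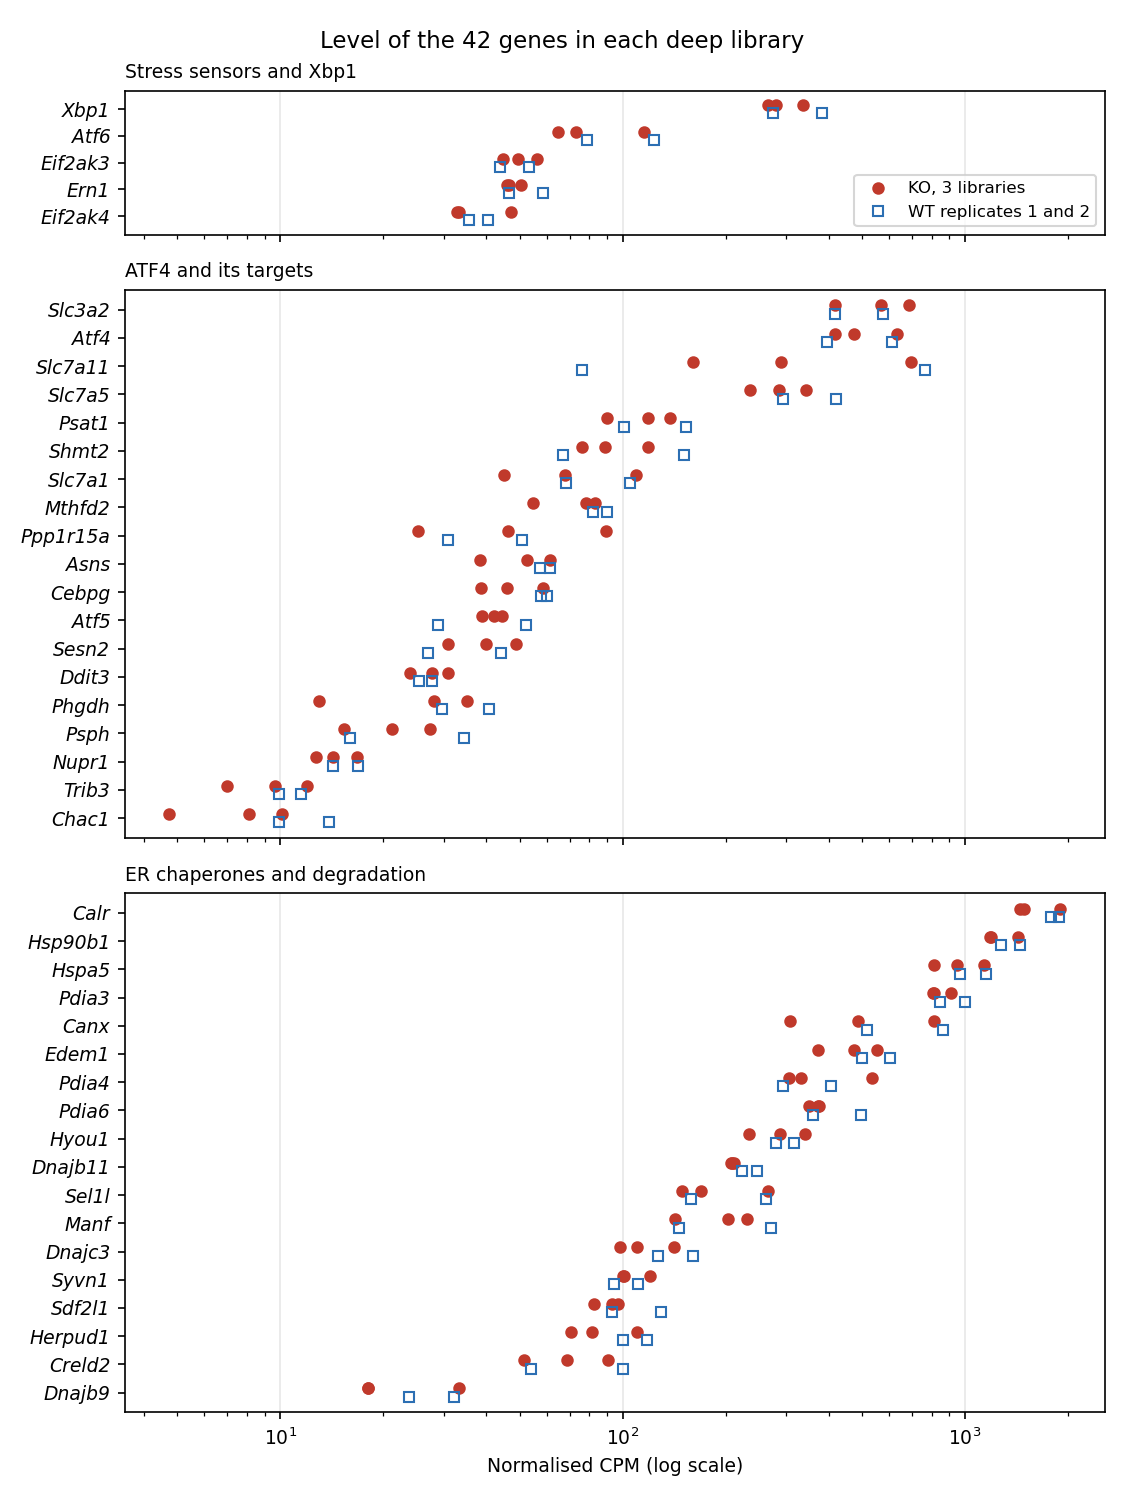
Normalised CPM on a log scale for each of the 42 genes in the 3 KO libraries (filled circles) and in WT replicates 1 and 2 (open squares), by class. KO and WT ranges overlap for all 42 genes but Dnajb11, and levels run from 4.75 CPM for Chac1 in KO replicate 2 to 1896 CPM for Calr in KO replicate 3.

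Atf4 and its targets were present in every deep library. Of 19 genes 0 were called, 5 had a positive and 14 a negative log2 fold change, and the median was -0.16, against 0.01 over all genes tested. ATF4 acts on many of these genes through a composite element that binds ATF4 paired with a C/EBP factor, here called CARE and searched as TGATGNAA on both strands of RefSeq promoter windows (GRCm38.p6, 250 bases before to 50 after the start). Promoters were found for 38 of the 42 genes (not for Slc7a5, Atf6, Hyou1 and Manf), among them 18 of these 19. Those 18 genes had 21 promoters, and 5 promoters held a match (those of Asns, Chac1, Nupr1, Slc7a11 and Trib3), where 3.97% of all 32851 did. Counted by gene, 5 of the 18 held a match, beside 1219 of all 27025 genes with a promoter. The 42 genes were chosen by name from what is known of the pathways. That choice may have favoured such matches, and no test was made. The stretches before the start site are shown for an enzyme, a stress-induced regulator and the most variable gene of the class. They are written 5′ to 3′ on the gene's own strand, with the match in capitals. In Chac1 and the second Slc7a11 stretch the match reads as the reverse complement. A match describes these letters and does not show binding.
Asns, chr6:7693213-7693244, minus strand: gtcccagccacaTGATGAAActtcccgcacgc
Chac1, chr2:119351037-119351068, plus strand: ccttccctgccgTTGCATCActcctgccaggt
Slc7a11, chr3:50443660-50443691, minus strand: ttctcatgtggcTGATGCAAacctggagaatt
Slc7a11, chr3:50443641-50443672, minus strand: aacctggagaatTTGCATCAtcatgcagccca

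The transcription factors of the class overlapped between the genotypes. Atf4 itself (chromosome 15, 80255184 to 80257541) stood at 474.4, 631.4 and 416.7 CPM in KO replicates 1, 2 and 3 and at 394.6 and 610.3 CPM in WT replicates 1 and 2, with 24 reads in WT replicate 3. The KO values lay over the WT range, and the log2 fold change was -0.14 (SE 0.37) with all libraries and 0.01 without WT replicate 3. Ddit3, which encodes the pro-apoptotic factor CHOP (chromosome 10, 127290774 to 127296288), was among the steadiest genes, at 23.9, 30.8 and 27.8 CPM in the KO libraries and 27.8 and 25.4 CPM in WT replicates 1 and 2, with 0 reads in WT replicate 3. Its 95% interval was -0.70 to 0.94 around a log2 fold change of 0.12, and the 0 in WT replicate 3 is compatible, for counting error, with a level of as much as 89.6 CPM.

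Cebpg, a C/EBP partner of ATF4 (chromosome 7, 35046422 to 35056573), stood at 58.6, 38.6 and 46.1 CPM in the KO libraries and at 57.9 and 60.0 CPM in WT replicates 1 and 2, with 2 reads in WT replicate 3. KO replicate 1 lay between the WT values and the other KO libraries below them (log2 fold change -0.30, SE 0.32). Atf5, a relative of ATF4, and Nupr1, a small stress-induced chromatin protein, averaged 41.8 ± 2.85 CPM and 14.6 ± 2.04 CPM in KO (SD, n = 3), between the WT values of 28.9 and 52.2 CPM for Atf5 and of 14.3 and 16.8 CPM for Nupr1.

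Among the feedback regulators Chac1 and Trib3 were the least abundant of the 42 genes per kilobase of exon. Chac1, which degrades glutathione (chromosome 2, 119351229 to 119354381), had the lowest log2 fold change of the 42 genes. It stood at 10.1, 4.75 and 8.12 CPM in the KO libraries and at 9.94 and 13.9 CPM in WT replicates 1 and 2, with 0 reads in WT replicate 3. KO replicate 1 lay above WT replicate 1, so the groups overlapped (log2 fold change -0.57, SE 0.46, 95% interval -1.59 to 0.44), and without KO replicate 2 the value was -0.34. Trib3, a pseudokinase that restrains ATF4, averaged 9.53 ± 2.47 CPM in KO (SD, n = 3) against 11.5 and 9.89 CPM in WT. Ppp1r15a, which encodes the eIF2 phosphatase subunit GADD34, stood at 25.3, 89.7 and 46.3 CPM in the KO libraries and at 50.8 and 30.9 CPM in WT replicates 1 and 2. It was highest in KO replicate 2, the library with 15.7% mitochondrial reads, and the part of RNA quality in that value was not tested. Sesn2, an inhibitor of mTORC1 signalling, was also highest in KO replicate 2, at 48.9 CPM, against 30.8 and 39.9 CPM in the other KO libraries and 44.2 and 27.0 CPM in WT.

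Enzymes of serine, asparagine and folate-linked metabolism had a negative log2 fold change in 6 of 6 cases with all libraries, and none was called. In the 18 alternative settings Asns, Phgdh and Mthfd2 stayed negative, while the sign turned in 7 for Psat1, in 3 for Psph and in 1 for Shmt2. Asns, asparagine synthetase (chromosome 6, 7675169 to 7693254), stood at 52.5, 38.3 and 61.4 CPM in KO replicates 1, 2 and 3 and at 61.5 and 57.5 CPM in WT replicates 1 and 2, with 3 reads in WT replicate 3. KO replicate 3 matched the WT level and KO replicate 2 was lowest (log2 fold change -0.29, SE 0.34, 95% interval -1.02 to 0.45). Phgdh, which starts serine synthesis (chromosome 3, 98313170 to 98339990), stood at 28.1, 12.97 and 35.2 CPM in the KO libraries and at 29.8 and 40.8 CPM in WT replicates 1 and 2, with 0 reads in WT replicate 3. KO replicate 2 was again the lowest library, and the log2 fold change was -0.38 (SE 0.46) with it and -0.07 without it. Mthfd2, a mitochondrial folate enzyme (chromosome 6, 83305691 to 83325908), stood at 78.1, 54.9 and 83.2 CPM in the KO libraries and at 82.1 and 90.0 CPM in WT replicates 1 and 2, with 3 reads in WT replicate 3. Here too KO replicate 2 was lowest, and without it the log2 fold change of -0.26 (SE 0.32) became -0.10. KO replicate 2 was the lowest deep library for 4 of these 6 genes, where it was lowest for 27.2% of all genes tested, and it also held the lowest summed level of 9 proliferation genes, 1957 CPM against 2567 to 2997 CPM in the other deep libraries. The part of its RNA quality and cell makeup in these values was not tested.

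The other 3 enzymes were highest in WT replicate 2, as were Phgdh and Mthfd2. Psat1, the next step of serine synthesis, stood at 137.3, 90.2 and 118.8 CPM in the KO libraries and at 100.8 and 153.1 CPM in WT replicates 1 and 2. Psph, the last step, averaged 21.3 ± 5.96 CPM in KO (SD, n = 3) against 16.0 and 34.5 CPM in WT, and Shmt2, which feeds serine into the folate cycle, averaged 94.6 ± 21.8 CPM against 67.1 and 151.3 CPM. For Psph and Shmt2 the gap between the WT libraries was wider than the whole KO range.

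Slc7a11 varied most of the 42 genes, and its variation ran within the genotypes. It encodes xCT, the cystine importer that supplies glutathione synthesis (chromosome 3, 49892526 to 50443614), and is described here because of its spread, seen in these values. It stood at 160.7, 290.9 and 696.2 CPM in KO replicates 1, 2 and 3 and at 761.9 and 76.0 CPM in WT replicates 1 and 2, a 10.0-fold distance between the WT libraries, with 6 reads in WT replicate 3. The WT libraries were the highest and the lowest of the 5, with the KO libraries between them. The log2 fold change was 0.07 (SE 0.76, 95% interval -1.60 to 1.75), and it was 2.04 without WT replicate 1, with an adjusted p = 0.618 by edgeR, and -0.67 without KO replicate 3. The median distance between the highest and lowest deep library was 1.64-fold for the 42 genes and 1.94-fold for all genes tested.

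Markers of cell types also differed between the libraries. Summed over 9 macrophage markers the level was 1270 CPM, 1455 CPM and 1965 CPM in KO replicates 1, 2 and 3 and 1732 CPM and 1115 CPM in WT replicates 1 and 2. For this sum the same 2 libraries were highest and the same library lowest as for Slc7a11. Most single markers did not follow it. Of the 9 markers 3 were higher in WT replicate 1 than in WT replicate 2, and 4 in KO replicate 3 than in KO replicate 1. Of these markers Csf1r, the receptor for M-CSF, stood at 158.1, 168.8 and 442.3 CPM in the KO libraries and at 485.1 and 132.6 CPM in WT, and Adgre1 (F4/80) was high in the same pair of libraries. C1qa, C1qb, C1qc and F13a1, 4 of the 9 markers, were instead highest in WT replicate 2, with C1qa at 9.60 CPM or below throughout. The 10 mast cell markers summed to 2157 CPM, 6157 CPM and 3820 CPM in KO and to 4285 CPM and 2327 CPM in WT. Cpa3, a mast cell protease, gave 3453 CPM of that sum in KO replicate 2, and 5 of the 10 markers had a negative log2 fold change. Of these the protease genes Mcpt1, Mcpt2 and Mcpt4 were lower in KO at an unadjusted p under 0.05 by edgeR and not after adjustment, and Mcpt4 did not overlap between KO and the deep WT libraries. Of the macrophage markers 1 was higher and 2 were lower at that p, and 2 were higher and 2 lower without overlap. Of all genes tested 1.24% were higher and 0.212% lower at that p, and 4.79% were higher and 3.87% lower without overlap. The 7 markers of neutrophil precursors with primary granules ran opposite to Slc7a11. They summed to 7152 CPM, 2152 CPM and 1873 CPM in KO and to 2201 CPM and 9462 CPM in WT. In these bulk samples fewer cells of a type and less RNA per cell cannot be told apart, and the part of cell makeup in the Slc7a11 values was not tested.

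**Figure D3:**
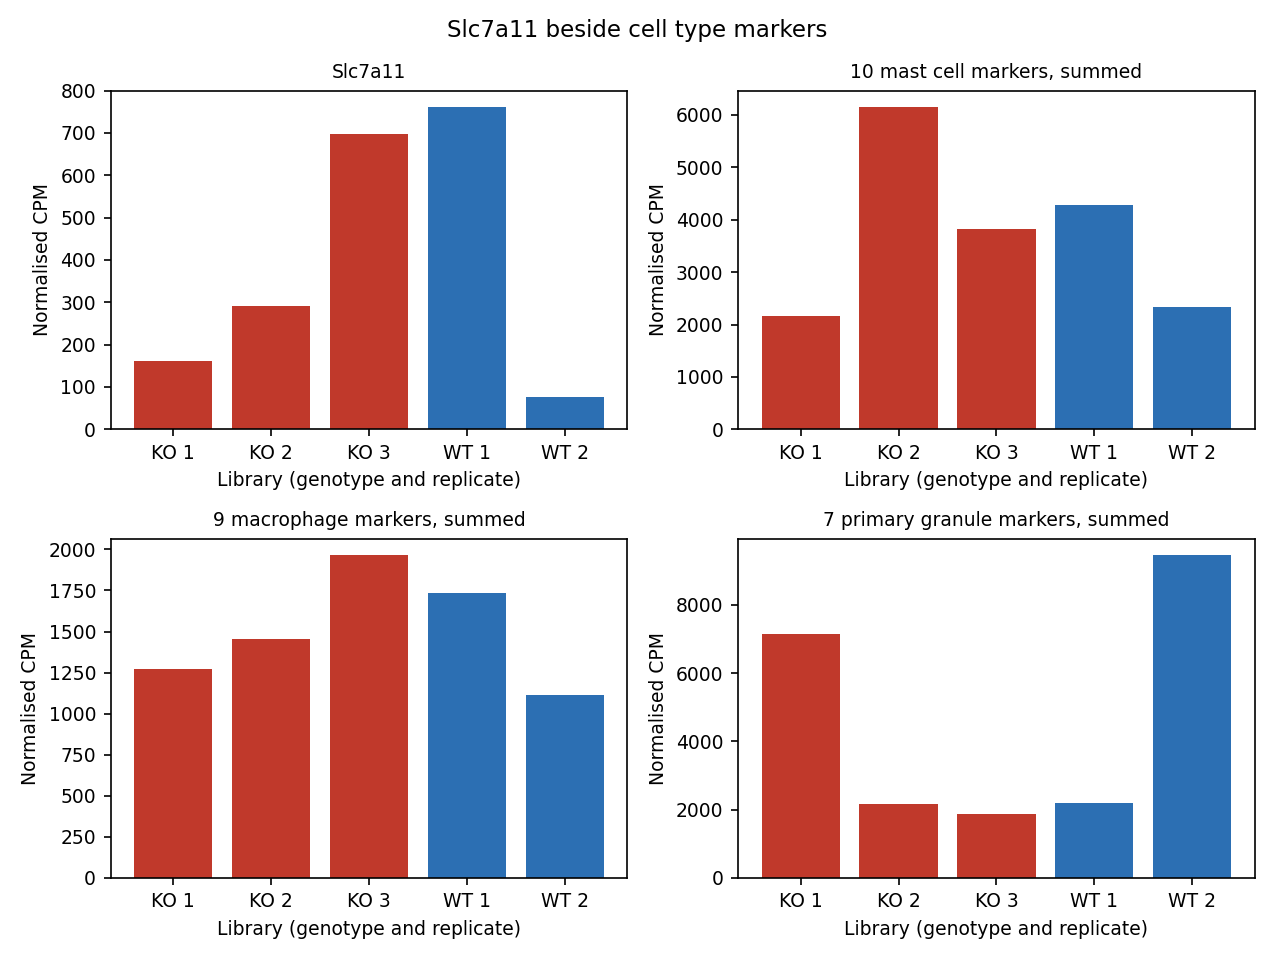
Normalised CPM of Slc7a11 and of the summed mast cell, macrophage and primary granule markers in the 5 deep libraries (red bars KO replicates 1 to 3, blue bars WT replicates 1 and 2). Slc7a11 and the macrophage sum are highest in KO replicate 3 and WT replicate 1 and lowest in WT replicate 2, where the primary granule sum is highest. Of the 9 macrophage markers 3 are higher in WT replicate 1 than in WT replicate 2.

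The other transporters were more even. Slc3a2, the heavy chain that pairs with xCT and with LAT1, stood at 416.0, 685.0 and 569.7 CPM in the KO libraries and at 575.9 and 417.1 CPM in WT replicates 1 and 2, with 12 reads in WT replicate 3. With all libraries it had the highest log2 fold change of the 42 genes (0.27, SE 0.36). Without WT replicate 3 its value was 0.16, and Ppp1r15a was highest at 0.38. Slc7a5, the LAT1 light chain for large neutral amino acids, averaged 288.6 ± 53.8 CPM in KO (SD, n = 3) against 293.3 and 419.0 CPM in WT. Slc7a1, a cationic amino acid carrier, stood at 67.7, 44.9 and 109.1 CPM in KO and at 104.8 and 68.3 CPM in WT, high in the same pair of libraries as Slc7a11.

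Chaperone and degradation genes had the highest summed level of the 3 classes, with single genes from first (Calr) to low (Dnajb9) in the order per kilobase. Of 18 genes 0 were called, 3 had a positive and 15 a negative log2 fold change, and the median was -0.09, against 0.01 over all genes tested. The class summed to 7277 CPM, 7667 CPM and 8511 CPM in KO replicates 1, 2 and 3 and to 8767 CPM and 8666 CPM in WT replicates 1 and 2. Both deep WT sums lay above the KO sums, and the closest pair was KO replicate 3 and WT replicate 2. The same order held for the summed sensor class, the proliferation genes, and the eIF2 and further ER lists described below. Sums of the ATF4 class and of the remaining lists overlapped between the genotypes. Singly, Dnajb11 alone of the 18 genes did not overlap. In WT replicate 3 the class held 256 reads, or 0.917% of gene reads (95% Wilson interval 0.812% to 1.04%), and 7647 CPM after scaling. That CPM lies inside the KO range, whereas the share lies above the 0.728%, 0.687% and 0.829% of gene reads in KO replicates 1, 2 and 3 and the 0.843% and 0.850% in WT replicates 1 and 2, so the place of WT replicate 3 depends on the scaling.

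ATF6 and XBP1 act on many of these genes through the ER stress response element (ERSE), which was searched as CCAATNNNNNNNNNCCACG on both strands of the same promoter windows. It was found in the promoters of 8 genes of this class out of 16 with a promoter in the table, and in 0.119% of all 32851 promoters. The 8 were Calr, Canx, Creld2, Dnajc3, Hsp90b1, Hspa5, Pdia6 and Syvn1, and none of the promoters of the ATF4 class or of the sensors held it. A shorter form, ERSE-II, searched as ATTGG and CCACG with any 1 base between them, was in the promoters of Herpud1 and Dnajb11 and in 0.0365% of all promoters. Herpud1 was the 1 gene of this class with a CARE match as well. As with CARE, the choice of these genes by name may have favoured ERSE and ERSE-II matches. The matches began 44 to 212 bases before the start site for ERSE and lay on either strand. The stretches below are shown for the genes described next, with the match in capitals, and the Calr, Creld2 and Herpud1 CARE matches read as the reverse complement. Hsp90b1 held a further ERSE match, on the opposite strand and nearer the start site, which is not shown.
Hspa5, chr2:34772013-34772055, plus strand: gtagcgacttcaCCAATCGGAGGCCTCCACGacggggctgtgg
Hsp90b1, chr10:86705626-86705668, minus strand: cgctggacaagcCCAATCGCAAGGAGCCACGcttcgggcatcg
Pdia6, chr12:17266479-17266521, plus strand: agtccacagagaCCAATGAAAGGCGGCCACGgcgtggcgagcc
Calr, chr8:84847063-84847105, minus strand: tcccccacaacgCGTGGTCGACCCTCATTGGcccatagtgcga
Creld2, chr15:88819508-88819550, plus strand: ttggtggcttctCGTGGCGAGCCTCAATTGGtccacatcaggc
Herpud1 ERSE-II, chr8:94386365-94386399, plus strand: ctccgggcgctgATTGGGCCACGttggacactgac
Herpud1 CARE, chr8:94386305-94386336, plus strand: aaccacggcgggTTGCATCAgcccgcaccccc

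**Figure D4:**
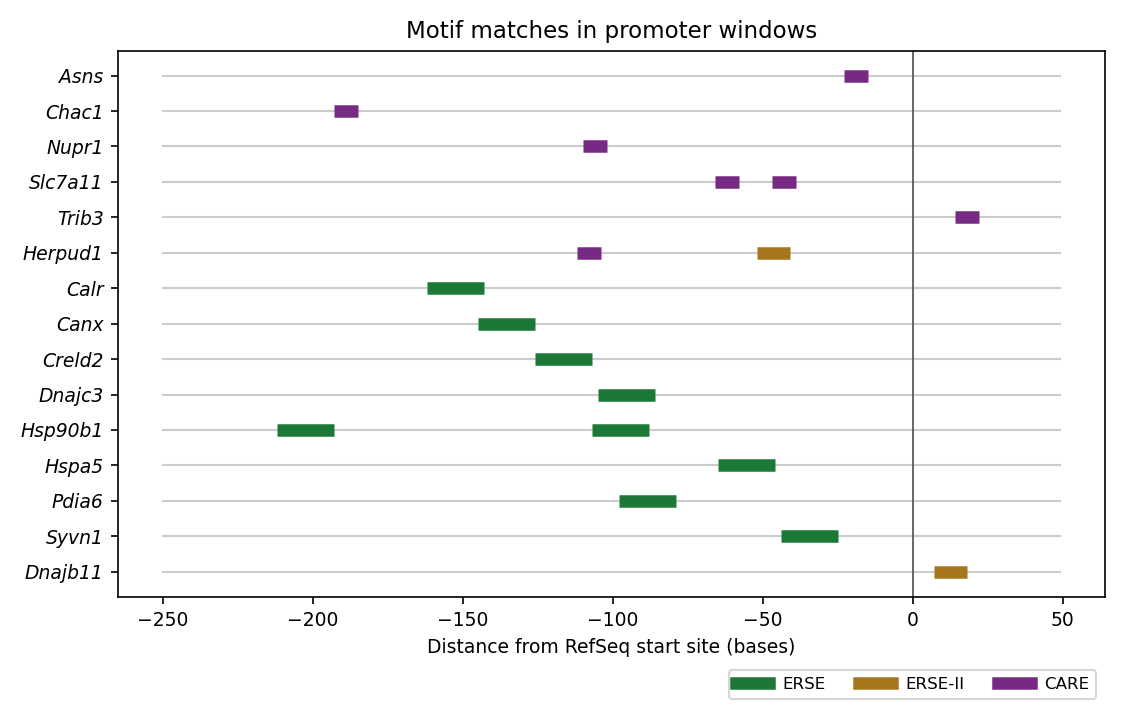
Distance in bases from the RefSeq start site of each ERSE, ERSE-II and CARE match in the promoter windows (grey lines) of the 15 genes that hold one. The ERSE matches lie in 8 chaperone and degradation genes, and CARE matches in 5 genes of the ATF4 class and in Herpud1.

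Hspa5 encodes BiP, the main ER chaperone, which holds the sensors inactive (chromosome 2, 34771970 to 34777547). It stood at 811, 946 and 1137 CPM in KO replicates 1, 2 and 3 and at 1148 and 965.3 CPM in WT replicates 1 and 2, with 28 reads in WT replicate 3. The groups overlapped, and the log2 fold change was -0.04 (SE 0.36, 95% interval -0.82 to 0.74). Hsp90b1, the ER member of the HSP90 family (chromosome 10, 86690209 to 86705509), stood at 1192, 1425 and 1181 CPM in the KO libraries and at 1276 and 1451 CPM in WT replicates 1 and 2, with 76 reads in WT replicate 3. Those 76 reads correspond to 2270.2 CPM, above every other library, and the log2 fold change was -0.38 (SE 0.39) with them and -0.11 without WT replicate 3.

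Creld2, a secreted ER stress protein (chromosome 15, 88819646 to 88826683), had the most negative log2 fold change of this class, -0.44 (SE 0.47, 95% interval -1.46 to 0.59). It stood at 68.8, 90.5 and 51.7 CPM in KO and at 54.1 and 100.4 CPM in WT replicates 1 and 2, with 8 reads in WT replicate 3. The KO values lay within the WT range but for KO replicate 3, and without WT replicate 3 the value was -0.14. Sdf2l1, which serves BiP in folding (chromosome 16, 17130138 to 17132383), stood at 97.0, 92.9 and 82.3 CPM in KO and at 93.1 and 129.3 CPM in WT replicates 1 and 2, with 4 reads in WT replicate 3 (log2 fold change -0.31, SE 0.32). Pdia6, a disulfide isomerase (chromosome 12, 17266545 to 17284770), stood at 373.9, 371.9 and 349.6 CPM in KO and at 360.5 and 497.5 CPM in WT replicates 1 and 2, with 17 reads in WT replicate 3 (log2 fold change -0.30, SE 0.32). For Sdf2l1 and Pdia6 WT replicate 2 was the high library and WT replicate 1 stood among the KO libraries.

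Herpud1, an ER membrane protein of the degradation machinery (chromosome 8, 94386438 to 94395377), stood at 81.3, 70.7 and 110.3 CPM in KO and at 117.9 and 100.2 CPM in WT replicates 1 and 2, with 3 reads in WT replicate 3. KO replicate 3 lay between the WT libraries and the other KO libraries below both (log2 fold change -0.29, SE 0.33, 95% interval -1.01 to 0.44). The ubiquitin ligase gene Syvn1 (HRD1) averaged 107.2 ± 11.3 CPM in KO (SD, n = 3) against 94.0 and 110.6 CPM in WT, and its adaptor gene Sel1l averaged 194.3 ± 62.2 CPM against 262.7 and 158.1 CPM. Edem1, a lectin that passes misfolded glycoproteins to degradation, averaged 466.3 ± 91.0 CPM in KO (SD, n = 3) against 605.6 and 498.9 CPM in WT. All 4 degradation genes had a negative log2 fold change, from -0.29 to -0.01, and Herpud1 alone kept that sign in all 18 alternative settings. The sign turned in 11 of them for Syvn1, in 4 for Sel1l and in 1 for Edem1.

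Per kilobase of exon the most abundant of the 42 genes in KO was Calr (calreticulin, a lectin chaperone) at 559.1 CPM per kb, followed by Hsp90b1 at 314 CPM per kb, the isomerase gene Pdia3 at 268.2 CPM per kb, Hspa5 at 228 CPM per kb and Atf4 at 215.2 CPM per kb. Trib3 and Chac1 were last, at 4.49 and 4.69 CPM per kb. Calr stood at 1449.5, 1485 and 1896 CPM in KO and at 1878 and 1781 CPM in WT replicates 1 and 2, with 40 reads in WT replicate 3. KO replicates 1 and 2 were below both deep WT libraries and KO replicate 3 was above them. Its processed copy Calr-ps is annotated separately, and reads that fit both equally are not in either count. Pdia3 averaged 842 ± 59.0 CPM in KO (SD, n = 3) against 844 and 999.8 CPM in WT.

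Canx, the membrane-bound partner of calreticulin, had the widest range of the class, at 488.1, 307.5 and 809.9 CPM in KO and at 862.8 and 516 CPM in WT replicates 1 and 2. It was high in KO replicate 3 and WT replicate 1, like Slc7a11, Slc7a1, Sel1l and Atf6. Dnajb11, a BiP cochaperone, had the narrowest range of the 42 genes, at 208.7, 212.1 and 206.8 CPM in KO and at 222.8 and 247.4 CPM in WT replicates 1 and 2, with 4 reads in WT replicate 3. This is the gene whose CPM did not overlap among the deep libraries. Its fitted difference was -0.03 (SE 0.33) with all libraries and -0.17 without WT replicate 3. The cochaperone genes Dnajb9 and Dnajc3 averaged 23.1 ± 8.73 CPM and 116.5 ± 22.0 CPM in KO (SD, n = 3), against 32.1 and 23.8 CPM and against 160.6 and 126.9 CPM in WT.

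Manf, a secreted stress protein, averaged 191.7 ± 45.5 CPM in KO (SD, n = 3), between the WT values of 146.2 and 272 CPM. Pdia4, an isomerase, stood at 332, 533.8 and 306.1 CPM in KO and at 293.3 and 406.4 CPM in WT, highest in KO replicate 2 (log2 fold change 0.26, SE 0.37). Hyou1, a large chaperone of the HSP70 family, averaged 288 ± 53.3 CPM in KO (SD, n = 3) against 315.7 and 281.2 CPM in WT, with a log2 fold change of 0.23 (SE 0.46). The deep means ran the other way, and without WT replicate 3, which held 1 read, the value was -0.053.

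In 1 pair of deep libraries from each genotype most genes differed in a shared order. KO replicate 2 and WT replicate 3 were not part of these pairs. KO replicate 3 against KO replicate 1 and WT replicate 1 against WT replicate 2 went the same way for 39 of the 42 genes: both differences were positive for 21 genes and both negative for 18. These shares of 50% and 42.9% stand beside 41.7% and 42.3% of all genes tested, so most genes followed the same order. The positive set held Slc7a11, Slc7a1, Canx, Sel1l and Atf6, and the negative set held Shmt2, Psph, Manf, Xbp1 and Atf4. The range within at least 1 genotype exceeded the fold difference between the genotype means for 41 of the 42 genes and for 96.5% of all genes tested. KO replicate 1 was the highest deep library for 0 of the 42 genes and WT replicate 2 for 18, against 9.63% and 24.9% of all genes tested.

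**Figure D5:**
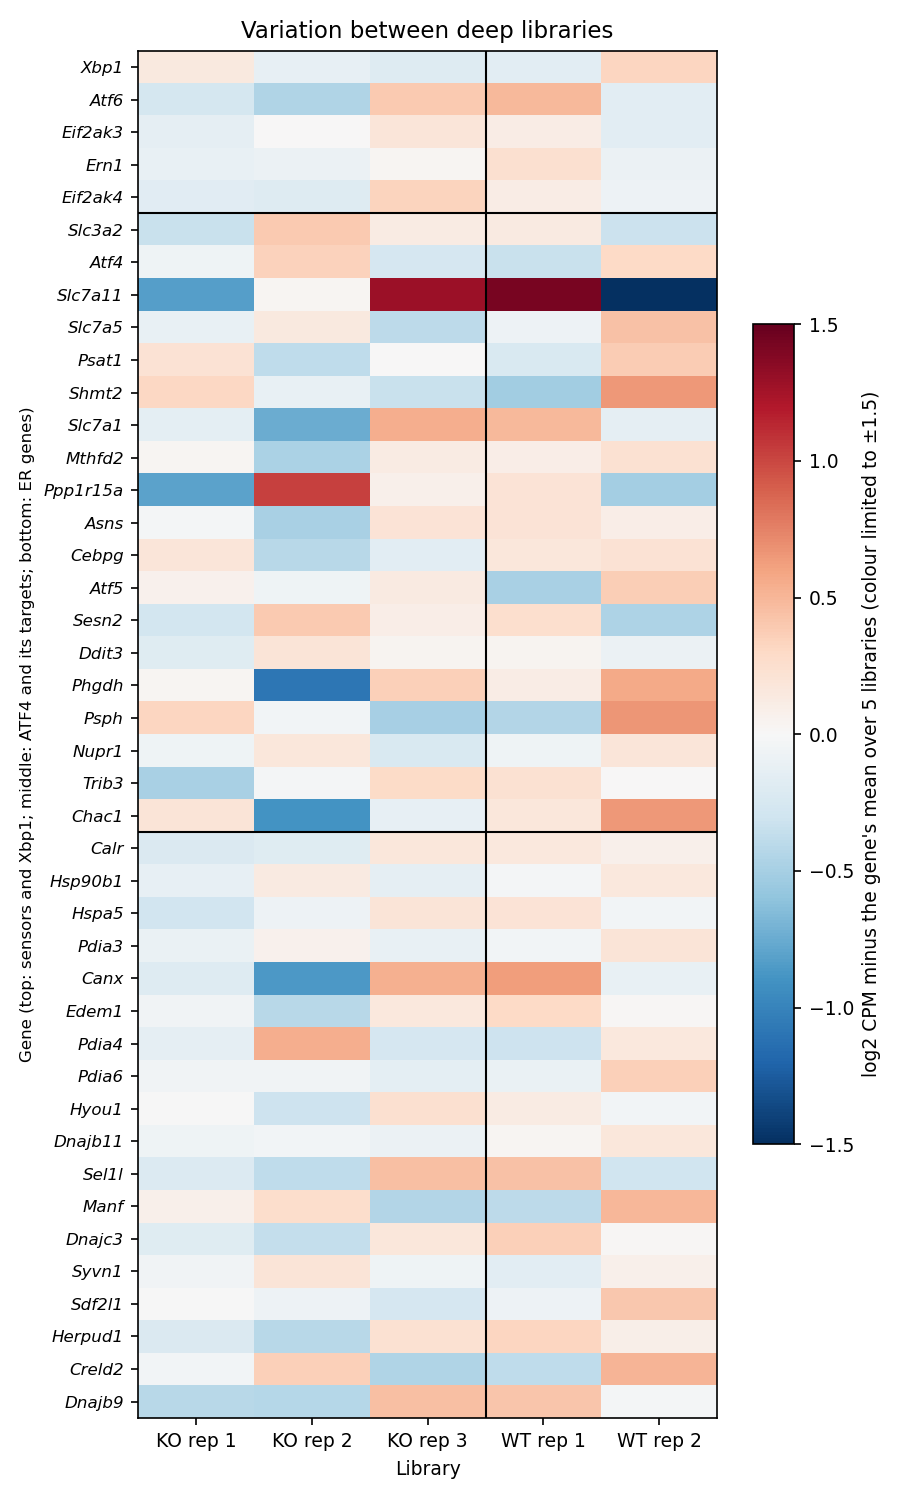
Log2 CPM of each of the 42 genes minus its own mean over the 5 deep libraries, with KO replicates 1 to 3 left and WT replicates 1 and 2 right, in the order sensors and Xbp1, ATF4 and its targets, ER genes. KO replicate 3 resembles WT replicate 1 and KO replicate 1 resembles WT replicate 2, and Slc7a11 has the strongest colours.

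Further genes of both pathways were not called either. Of 13 aminoacyl-tRNA synthetase genes, which load amino acids onto tRNA and include ATF4 targets, 0 were called by edgeR, 4 had a positive and 9 a negative log2 fold change, and the median was -0.04. The lowest p belonged to Wars (-0.23, SE 0.31) and Nars (-0.21, SE 0.32). Of 20 other ATF4 targets 17 were tested and 0 called, 8 positive and 9 negative, with a median of -0.13. Gdf15, a stress-induced cytokine, stood at 13.3, 41.0 and 36.6 CPM in KO and at 21.7 and 9.79 CPM in WT replicates 1 and 2 (0.90, SE 0.53), and Ddit4, an mTORC1 inhibitor, at 18.4, 19.1 and 21.4 CPM in KO and at 30.7 and 29.1 CPM in WT (-0.53, SE 0.38). Ddit4 and Bbc3 of this list and Wars of the synthetases were lower in KO without overlap with the deep WT libraries, and Gdf15 overlapped. Of all genes tested 3.87% were lower and 4.79% higher without overlap.

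Among 11 genes of eIF2, its exchange factor eIF2B and related kinases 0 were called, 6 positive and 5 negative, with a median of 0.01. The lowest p belonged to Eif2ak2, which encodes the double-stranded RNA sensor PKR (-0.25, SE 0.35), and Eif2b4 (-0.26, SE 0.39). Of 34 other genes of ER folding, translocation and degradation 32 were tested and 0 called, 9 positive and 23 negative, with a median of -0.06. The oxidase gene Ero1lb stood at 10.1, 3.64 and 12.3 CPM in KO and at 21.3 and 10.2 CPM in WT replicates 1 and 2 (-0.79, SE 0.54). The translocation gene Sec63 stood at 105.9, 117.5 and 109.7 CPM in KO and at 120.5 and 127.1 CPM in WT replicates 1 and 2 (-0.39, SE 0.37). That fitted value includes 9 reads in WT replicate 3, or 268.8 CPM, above every other library. Sec63, Erp44 and Ssr1 were lower in KO without overlap with the deep WT libraries, and no gene of the 4 lists was higher without overlap. The shares over all genes tested were 3.87% lower and 4.79% higher. None of these 4 lists held a gene with an unadjusted p under 0.05 by edgeR.

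Plasma cells, whose ER stress programme is strong, left little trace in these cultures. Of the 10 plasma and B cell markers Tnfrsf17 and Ms4a1 had 0 reads in each deep library, Mzb1 was at 0.10 CPM or less and Jchain at 0.31 CPM or less. The list summed to 67.0 CPM, 34.5 CPM and 26.8 CPM in KO and to 43.1 CPM and 85.1 CPM in WT replicates 1 and 2, most of it from Ighm.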

How the data were processed

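Stranded poly(A) libraries of 6 mouse samples were sequenced, per the labels. The authors deposited raw read counts per gene, 1 file per run and 7 in all, in the layout of STAR's gene counter. The submitters' processing notes name STAR 2.5.1b, GRCm38 and DESeq2 without saying what each was used for. The annotation release was not given in those sources. For this stranded kit the reverse-strand column was taken (95.6% to 97.5% of stranded gene reads). The 4 rows that name no gene held 25.6% to 47.8% of reads and were left out. The 2 runs of WT replicate 3 were summed. Of 46983 genes 46488 matched a symbol by Ensembl ID, and GENCODE M21 gave coordinates and exon lengths. After filterByExpr, TMM factors were computed and edgeR 4.0.16 was run (robust glmQLFit and glmQLFTest, two-sided, genotype as the term), with Benjamini-Hochberg adjustment over 12292 genes. Standard errors are the size of the log2 fold change over the root of F. Intervals and floors (3 reads) given for single libraries cover counting error only. DESeq2 1.42.0 and limma 3.58.1 were alternatives.

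The members, lists and tests were chosen with earlier results of these data known. Full statistics were given for Psip1, Atf4, Ddit3, Chac1, Asns, Hspa5 and Xbp1, for the 5 genes of lowest p in each class and for Slc7a11, which was added after its values were seen. Other members are given by level or range, some with their fitted difference, and from each further list the 2 genes of lowest p were named.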

Additional observations from a re-analysis of the deposited data

How the results depend on the processing

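The number of the 42 genes called was 0 in each of 19 settings tried: another scaling, other filters, DESeq2, limma-voom, counts without strand, the first run of WT replicate 3 alone, the replicate number as a block, each library left out, an adjusted p under 0.1, DESeq2 or limma-voom without WT replicate 3, and, chosen after seeing the data, WT replicate 3 and KO replicate 2 left out together. Over all genes edgeR called 2 with library size scaling, 9 without a filter, 13 with the replicate block and 4 at an adjusted p under 0.1, DESeq2 called 1, and with libraries left out the count ran from 0 to 12 (5 without WT replicate 1, 5 without KO replicate 3 and 12 by DESeq2 without WT replicate 3). Psip1 passed the threshold without a filter (-2.28), with the replicate block (-2.33) and by DESeq2 without WT replicate 3 (-2.32), and its log2 fold change ran from -2.45 to -2.12 with libraries left out. Class medians with libraries left out ran from -0.20 to -0.08 for the ATF4 class, from -0.22 to 0.018 for the ER class and from -0.16 to 0.12 for the sensors. The lower ends were without WT replicate 1 for the ATF4 class and without KO replicate 3 for the other classes, and the positive values were without WT replicate 1. The median over all genes was 0.01, -0.32 by DESeq2, which tested 22237 genes, and 0.13 without WT replicate 1. Of the 42 genes 29 turned sign in at least 1 of 18 settings. Among the genes with full statistics, signs turned with libraries left out for Atf4 (-0.32 to 0.030, and 0.022 without KO replicate 3), Ddit3 (-0.043 to 0.28), Eif2ak4 (-0.16 to 0.16), Ern1 (-0.28 to 0.040), Atf6 (-0.51 to 0.12), Xbp1 (-0.17 to 0.19), Hspa5 (-0.15 to 0.14) and Slc7a11 (-0.67 to 2.04). Eif2ak4 was also at -0.022 with library size scaling, -0.014 by limma-voom, -0.10 with the replicate block, and -0.019 by DESeq2 and -0.016 by limma-voom without WT replicate 3. The causes were not tested. For the replicate block, deviations of same-numbered KO and WT libraries from their group means correlated at -0.29, -0.032 and -0.15, and no library correlated best with its own number. These values cannot show whether the samples were paired, because the shallow WT replicate 3 enters the WT means. WT replicate 3 limits the depth: 1 of its reads equals 29.9 CPM, and 6 of the 42 genes had 0 reads there.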
